A study of Homo sapiens with 4 samples.

Results

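The MYC, MAX and MXD network is a family of transcription factors that pair with each other to bind DNA. Its members were taken by gene symbol from the deposited expression table and comprised MYC, MAX, MXD1, MXD3, MXD4, MXI1, MNT, MGA, MLX and MLXIP. All 10 were found among 23622 genes, and all 10 passed the filter on low values that left 14120 genes for the test. The cells were MV4-11, an established acute myeloid leukemia (AML) line that carries a KMT2A-AFF1 fusion and an internal duplication in FLT3. By RNA sequencing, control cells (sh-NC, 2 libraries) were set against cells with a short hairpin RNA against the transcription factor IRF1 (sh-IRF1, 2 libraries). The labels give both groups a wild-type genotype, call the control libraries untreated and name IRF1 knockdown as the treatment of the others, whereas the deposited columns call the control sh-NC. Hairpins were delivered by lentivirus, and the hairpin behind each sh-IRF1 library was not given in the sources used here.

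MYC binds DNA only as a pair with MAX, mostly at the E-box, and recruits histone acetyltransferases and elongation factors that raise transcription of genes for ribosome assembly, nucleotide synthesis and metabolism. MXD1, MXD3, MXD4, MXI1 and MNT compete for MAX and bring the SIN3 and histone deacetylase corepressor to the same sites, and MGA pairs with MAX inside a Polycomb complex named PRC1.6. MLX is a MAX-like protein whose partners MLXIP (MondoA) and MLXIPL (ChREBP) respond to glucose products. High MYC activity is a common feature of AML with KMT2A fusions.

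Promoter windows from 250 bases before to 50 bases after each annotated start were searched for the E-box on both strands, since these are the letters that the network proteins themselves recognise. The windows came from RefSeq (GRCh38.p14), where 14 windows matched 9 of the 10 members. The 9 were all members but MYC. The E-box CACGTG occurred in 3 of the 14 member windows, those of MXD4, MNT and MLX, and in 7.26% of all 35116 windows. The stretches holding it are printed 5′ to 3′ on the strand of the gene, with the E-box in capitals, for MXD4 at chr4:2262302-2262359 (minus strand), MNT at chr17:2401208-2401293 (minus strand) and MLX at chr17:42567010-42567095 (plus strand).
MXD4: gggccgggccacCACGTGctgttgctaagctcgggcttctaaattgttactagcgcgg
MNT: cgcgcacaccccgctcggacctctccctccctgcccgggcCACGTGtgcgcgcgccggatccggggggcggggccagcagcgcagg
MLX: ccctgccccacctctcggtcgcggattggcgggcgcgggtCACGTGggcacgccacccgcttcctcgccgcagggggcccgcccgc
The first base of the E-box lay 238 bases before the start of MXD4, 193 before that of MNT and 50 before that of MLX. Such a match describes letters only and shows no binding.

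The targets of the 2 IRF1 hairpins that the study lists are shown because a match in a network transcript would bear on every comparison here.
sh-IRF1#1: gcaccagtgatctgtacaact
sh-IRF1#2: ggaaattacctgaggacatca
The first occurred in 12 and the second in 13 of 50 annotated IRF1 transcripts (GENCODE 44), and neither occurred in any of the 138 annotated transcripts of the 10 members. Only exact matches over the full length of a target were searched, and partial matches were not tested. IRF1, the targeted gene, had 785 and 738 normalized counts in the control libraries and 430 and 432 in the sh-IRF1 libraries. Both sh-IRF1 libraries lay below both controls, at 56.6% of the control mean.

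Normalized counts here are the reads of a gene divided by 1 size factor per library. The libraries held between 17635908 and 18695337 reads, of which mitochondrial genes took between 3.92% and 4.51%. Of 10 myeloid leukemia markers all were detected, with a summed level of 40961 to 41022 in sh-NC and 36337 to 36430 in sh-IRF1. FLT3 held the largest part of this sum, at 17391 and 17412 in sh-NC and 12745 and 12634 in sh-IRF1. At a limma adjusted p under 0.05, 5 markers were lower, 2 were higher and 3 passed in neither direction. The shares over all genes were 21.9% lower and 20.3% higher. MPO had a log2 fold change of -1.42, PTPRC of -0.48 and FLT3 of -0.46, while LYZ was at 0.85 and SPI1 at 0.17. For other cell types, some defining genes were at 0 or not listed (CD3D, CD3E and CD2 of T cells, MS4A1 of B cells, HBA1 and HBB of erythroid cells, EPCAM, CDH1 and KRT19 of epithelia, COL1A2 and DCN of fibroblasts). The B cell markers nevertheless moved with the knockdown, from a summed level of 88.2 to 120 in sh-NC to 254 to 305 in sh-IRF1, mostly from CD79A. Other listed markers were present at low levels, with KLF1 (erythroid) at 27.7 and 28.8 in sh-NC and 11.9 and 10.3 in sh-IRF1 (log2 fold change -1.27, limma adjusted p = 0.0317) and KRT8 (epithelial) at 146 and 95.5 against 186 and 167 (0.57, adjusted p = 0.0111). Named pseudogenes of KRT8 hold 44.5% as many reads as the gene. The summed level of the epithelial markers, KRT18 among them, was between 254 and 343 in sh-NC and between 362 and 392 in sh-IRF1. KRT18 itself was not called (0.18, limma adjusted p = 0.379). That of the fibroblast markers, nearly all from PDGFRB, was between 28.8 and 29.7 in sh-NC and between 39.4 and 52.7 in sh-IRF1. PDGFRB was not called either (0.71, limma adjusted p = 0.105). The part of these shifts in the results below was not tested. In bulk RNA, fewer cells of a kind and less RNA per cell cannot be told apart.

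Fold changes were computed as log2(normalized count + 1) of sh-IRF1 minus sh-NC and tested with limma over all 14120 genes, with Benjamini-Hochberg adjustment and a threshold of 0.05. Of the 10 members, 5 were called lower (MYC, MAX, MXD1, MXI1 and MLX), 1 was called higher (MGA) and 4 were not called (MXD3, MXD4, MNT and MLXIP). Across all genes tested 21.9% were called lower and 20.3% higher. Beyond a log2 fold change of 0.5 in size there were 2 members called lower, MYC and MXI1, and 0 called higher, beside 7.56% of all genes called below -0.5 and 8.27% above 0.5. MXI1 stood at the edge of this limit, so that MYC alone was beyond it under total count scaling, upper-quartile scaling and edgeR, and without sh-NC replicate 1 (MXI1 at -0.50, just inside) or sh-IRF1 replicate 2 (-0.49). The libraries of the groups did not overlap, with sh-IRF1 lower, for 7 members, and with sh-IRF1 higher for 1, where the shares over all genes were 35% and 34.2%. The median log2 fold change of the members was -0.23, against -0.0019 for all genes. For 4 libraries in equal groups the smallest exact two-sided permutation p is 0.33, so the calls depend on the variance limma borrows from other genes, and nothing in the labels says that the replicates came from separate cultures.

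**Figure D1:**
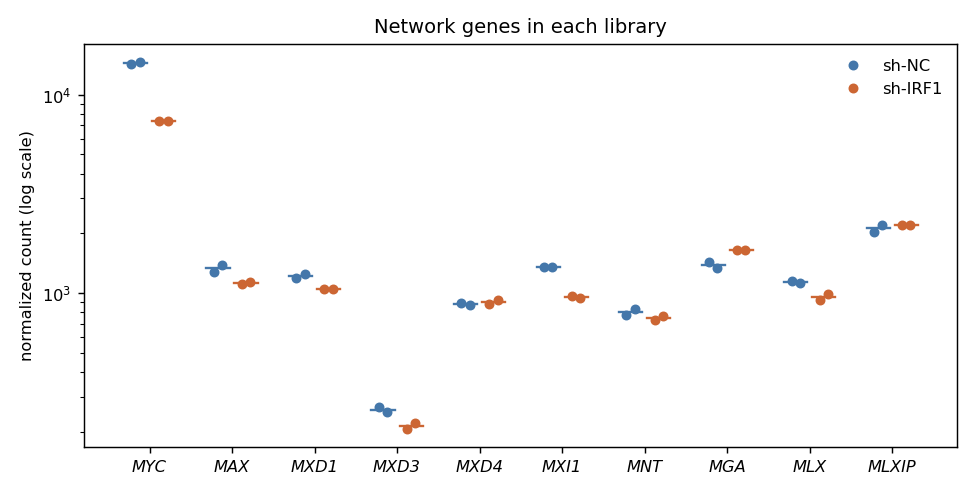
Normalized count (log axis) of each network gene in the 2 sh-NC and the 2 sh-IRF1 libraries, 1 point per library and a short line at the group mean. MYC fell from 14198 and 14561 to 7380 and 7348, the libraries of MXD4 and MLXIP overlap between the groups, and MGA is the gene whose sh-IRF1 libraries both lie above the controls.

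MYC (ENSG00000136997), the activator of the network, lies on chromosome 8 of GRCh38 from 127735434 to 127742951 on the plus strand. It had 14198 and 14561 normalized counts in the 2 control libraries and 7380 and 7348 in the sh-IRF1 libraries. The libraries within a group were close and the groups far apart. The log2 fold change was -0.97 (95% interval -1.03 to -0.91), the widest gap from 0 among the 10 members, with a limma adjusted p of 1.03e-29. It stayed between -0.98 and -0.92 over 15 alternative settings.

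MAX (ENSG00000125952, chromosome 14 from 65006174 to 65102695, minus strand) encodes a partner of MYC, the MXD proteins, MNT and MGA. Its normalized count was 1269 and 1391 in sh-NC and 1105 and 1131 in sh-IRF1, lower in both knockdown libraries and at 84.1% of the control mean. The change was -0.25 on the log2 scale (standard error 0.0645, limma adjusted p = 0.00145). Without sh-NC replicate 2 it was -0.18 and no longer passed (adjusted p = 0.0576). Other genes cover 16.1% of its exonic bases, chiefly FNTB on the opposite strand, which had a log2 fold change of 0.086 (adjusted p = 0.703).

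Of the 6 repressor partners of MAX, 2 were called lower (MXD1 and MXI1), 1 higher (MGA) and 3 were not called, beside 21.9% lower and 20.3% higher among all genes. MXI1 (ENSG00000119950, chromosome 10 from 110207605 to 110287365, plus strand), also known as MXD2, had the lowest fold change of the 6. Its normalized count was 1351 and 1346 in sh-NC and 962 and 942 in sh-IRF1. The gap between the groups was many times that between replicates, with 70.6% of the control level left. The log2 fold change was -0.50 (95% interval -0.63 to -0.37, limma adjusted p = 1.07e-08), and it was called in all 15 alternatives, at -0.52 to -0.46.

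MXD1 (ENSG00000059728, chromosome 2 from 69897688 to 69942945, plus strand), known for its rise as myeloid cells mature, was lower in the knockdown. Maturation of the cells was not tested here. It had 1189 and 1252 normalized counts in sh-NC and 1047 and 1044 in sh-IRF1. The groups did not overlap, but the log2 fold change was small, -0.22 (standard error 0.0656, limma adjusted p = 0.00494). Without sh-NC replicate 2 it was -0.19 and did not pass (adjusted p = 0.0621).

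MXD3 and MXD4 encode the remaining MXD proteins, and neither was called. MXD3 (ENSG00000213347, chromosome 5 from 177301461 to 177312757, minus strand) was the member with the fewest reads, at 265 and 252 normalized counts in sh-NC and 207 and 221 in sh-IRF1. Both knockdown libraries were below both controls, yet the interval of the log2 fold change ran from -0.55 to 0.011 around -0.27 (limma adjusted p = 0.117). Its reads are the least certain of the network, since 43.7% of its exonic bases are shared, mostly with PRELID1 on the opposite strand, which had means of 2553 and 2749 normalized counts, and the use of strand in the counting was not given in the sources used here. MXD4 (ENSG00000123933, chromosome 4 from 2247432 to 2262109, minus strand) had 889 and 867 normalized counts in sh-NC and 875 and 926 in sh-IRF1. Its groups overlapped, and the interval of the log2 fold change, -0.11 to 0.18, leaves room for a small difference in either direction (adjusted p = 0.730).

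MNT (ENSG00000070444, chromosome 17 from 2384073 to 2401104, minus strand), the MAX partner expressed most widely across tissues, was not called. Its normalized count was 778 and 832 in sh-NC and 729 and 765 in sh-IRF1. The groups touched closely without overlap, and the log2 fold change was -0.11 (95% interval -0.27 to 0.051, limma adjusted p = 0.285). Another gene covers 12.2% of its exonic bases.

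MGA (ENSG00000174197, chromosome 15 from 41621134 to 41773081, plus strand), which joins MAX to PRC1.6, was the member called higher. It had 1425 and 1337 normalized counts in sh-NC and 1644 and 1641 in sh-IRF1. Both knockdown libraries exceeded both controls, at 119% of the control mean. The log2 fold change was 0.25 (95% interval 0.13 to 0.37, limma adjusted p = 0.000390), and it was called in all 15 alternatives, at 0.20 to 0.30. Differences between the fold changes of single members were not tested.

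MLX (ENSG00000108788, chromosome 17 from 42567072 to 42573239, plus strand) was lower in the knockdown while its partner MLXIP was not called. The normalized count of MLX was 1151 and 1118 in sh-NC and 925 and 988 in sh-IRF1, 84.3% of the control mean. Its log2 fold change was -0.25 (standard error 0.0684, limma adjusted p = 0.00285). Without sh-IRF1 replicate 1 it was -0.20 and did not pass (adjusted p = 0.0714), and other genes, chiefly PSMC3IP, which itself stood at 0.45 (adjusted p = 0.0822), cover 18.2% of its exonic bases. MLXIP (ENSG00000175727, chromosome 12 from 122078756 to 122147344, plus strand) had 2039 and 2208 normalized counts in sh-NC and 2195 and 2204 in sh-IRF1. The groups overlapped, with a log2 fold change of 0.052 (95% interval -0.050 to 0.15, adjusted p = 0.440).

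**Figure D2:**
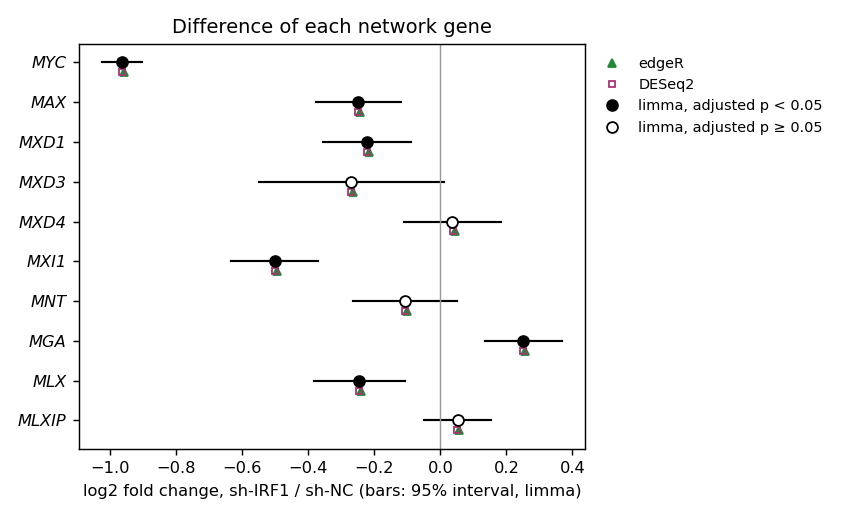
Log2 fold change of sh-IRF1 over sh-NC for each network gene, with circles and 95% intervals from limma, filled where the adjusted p was under 0.05, and the estimates of edgeR (triangles) and DESeq2 (squares) on recovered reads below them. MYC at -0.97 and MXI1 at -0.50 lie to the left of the other genes and MGA at 0.25 to the right, and the tools give near-equal estimates.

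Of the genes of the same families that are not in the list above, the 2 with a row were both called lower, beside 21.9% of all genes. MYCL, a MYC paralog, had 162 and 187 normalized counts in sh-NC and 130 and 103 in sh-IRF1, or -0.58 on the log2 scale (limma adjusted p = 0.00776). That call was lost without sh-NC replicate 2 (-0.48) and without sh-IRF1 replicate 2 (-0.41). MLXIPL, the other glucose-responsive partner of MLX, had 103 and 123 normalized counts in sh-NC and 23.9 and 24.4 in sh-IRF1. With 21.4% of the control level left, its log2 fold change, -2.18 with a standard error of 0.287 (adjusted p = 1.62e-08), was further from 0 than that of any of the 10 members, at a far lower level than any of them. MYCN was listed with these genes and had no row in the table.

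To set the genes against each other, normalized counts were divided by the length of each gene's merged exons, giving a level per kilobase. MYC stood at 2354 ± 42.1 (SD, n = 2) in control cells and at 1205 ± 3.71 (SD, n = 2) after knockdown, higher than every other member in both groups. MLX followed at 267 and 225 (means of sh-NC and sh-IRF1), and MXD3 was last at 54.4 and 45.1. MXI1 passed from rank 3 in sh-NC (228) to rank 5 in sh-IRF1 (161), below MAX (213 and 179) and MXD1 (192 and 165). MLXIP stood at 153 and 159, MXD4 at 128 and 131, MNT at 92.5 and 85.8 and MGA at 68.8 and 81.8. Within each group the libraries of neighbours in this order did not overlap. Lengths are those of the annotation and not of the transcripts these cells make. With coding length in place of exon length MYC remained first while MXD1 came second and MGA last in both groups. On that length MXI1 (1203, rank 5) lay below MAX (1367) and MXD1 (1769) already in sh-NC, so its passing below them was not seen.

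MYC made up 62.7% and 62.8% of the summed per-length level of the 10 genes in the sh-NC libraries and 49.8% and 49.1% in the sh-IRF1 libraries. The level of MYC over that of MAX was 11.5 and 10.7 in sh-NC and 6.84 and 6.65 in sh-IRF1, so that MYC transcripts were in excess of MAX in every library. On coding length the group means were 6385 for MYC and 1367 for MAX in sh-NC, and 3270 and 1149 in sh-IRF1. MYC was still the higher, but by less, so the size of this excess and the share of MYC also depend on the length used. The summed level of the 6 repressor partners was 761 and 766 in sh-NC and 664 and 675 in sh-IRF1, 87.7% of the control. MYC over this sum was 3.05 and 3.11 in sh-NC and 1.82 and 1.78 in sh-IRF1, 58.4% of the control ratio. The groups did not overlap, and the exact two-sided permutation p was 0.33, the smallest this design allows. On coding length the ratio itself was 1.29 and 0.756 (group means) and its relative fall nearly the same, to 58.6%, so the size of the ratio depends on the length used. These are transcripts and say nothing of protein.

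**Figure D3:**
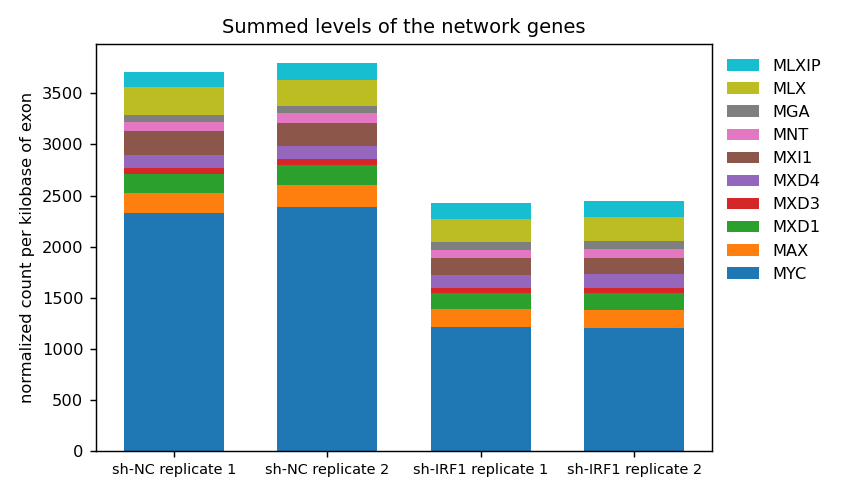
Normalized count per kilobase of merged exon, stacked over the 10 network genes, for each of the 4 libraries. MYC, the lowest block, shrinks from 2354 to 1205 on average and accounts for most of the drop in the height of the bars, while the blocks of MLXIP and MXD4 keep nearly the same height.

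The lists that follow are read beside the 21.9% of all genes called lower and the 20.3% called higher. Of 16 SIN3 and histone deacetylase genes, the corepressor of the MXD proteins, 8 (50%) were called lower and 1 (6.25%) higher, with a median log2 fold change of -0.17. The number called higher was 3 under total count scaling. HDAC2, a deacetylase subunit, fell from 3430 and 3365 to 2357 and 2230 normalized counts, a log2 fold change of -0.57 (limma adjusted p = 1.15e-14). SAP130, a SIN3-associated protein, was the gene called higher (0.25, adjusted p = 0.00205), a call lost without sh-NC replicate 1 (0.17) and without sh-IRF1 replicate 2 (0.21). Of the 10 PRC1.6 partners of MGA, 4 (40%) were called lower (CBX3 at -0.35, WDR5 at -0.38, TFDP1 at -0.23 and PCGF6 at -0.43) and 1 (10%) higher (RYBP at 0.17). The call of RYBP was lost without each of the 4 libraries in turn, at 0.14 to 0.20.

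Of 16 coactivators and partners of MYC protein, 4 (25%) were called higher (EP400 at 0.29, SUPT5H at 0.21, ZBTB17 at 0.39 and PAF1 at 0.26) and 4 (25%) lower (WDR5 at -0.38, BPTF at -0.23, CCNT1 at -0.19 and ACTL6A at -0.15), near the 20.3% and 21.9% of all genes. EP400, an ATPase of an acetyltransferase complex, had 4228 and 4681 normalized counts in sh-NC and 5460 and 5439 in sh-IRF1 (limma adjusted p = 3.17e-08), and a named pseudogene holds 6.34% as many reads. The calls of CCNT1 and ACTL6A were not stable, with CCNT1 at -0.16 without sh-NC replicate 2 and -0.18 without sh-IRF1 replicate 1, and ACTL6A at -0.13 without sh-NC replicate 1 and -0.096 without sh-IRF1 replicate 2. Of 19 genes that control the turnover of MYC protein, 7 were called higher, led by PPP2R1A (0.28, adjusted p = 6.68e-10), and 7 lower, led by PPP2CA (-0.41, adjusted p = 1.38e-10), 36.8% in each direction against 20.3% and 21.9% of all genes. These encode the scaffold and the catalytic subunit of the same phosphatase, which moved in opposite directions. Without sh-IRF1 replicate 1 the number called lower was 4, and without sh-IRF1 replicate 2 the number called higher was 3.

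Downstream, 43 genes known to be activated by MYC were tested. At an adjusted p under 0.05, 30 of them (69.8%) were lower, against 21.9% of all genes, 2 (4.65%) were higher, against 20.3%, and 11 were not called, and the median log2 fold change was -0.26. NCL, a nucleolar protein, led the lower genes by p at -0.49 (limma adjusted p = 1.49e-21). The 2 higher genes were TFRC, the transferrin receptor (0.90, adjusted p = 2.31e-31), and CDK4, a cell cycle kinase (0.18, adjusted p = 0.00315). CDK4 shares 44.2% of its exonic bases with other genes, chiefly TSPAN31, and was at 0.12 and not called without sh-IRF1 replicate 1.

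The next list held genes known to be repressed by MYC, in part through ZBTB17 (MIZ1). Whether ZBTB17 acts at each of them was not tested. Of 12 listed, 11 were in the table and 10 could be tested, of which 2 (20%) were called higher and 4 (40%) lower, against 20.3% and 21.9% of all genes, around a median of -0.18 (log2). CLU, a secreted chaperone, rose from 38.0 and 38.0 to 237 and 299 normalized counts, a log2 fold change of 2.78 (limma adjusted p = 2.31e-15). CDKN2B, an inhibitor of CDK4, was at 1.31 but rested on 55.4 and 22.6 normalized counts in sh-NC and 97.5 and 81.5 in sh-IRF1, and was not called without sh-NC replicate 2 (0.68) or without sh-IRF1 replicate 1 (1.18). The 4 lower genes were NDRG1 (-0.30), CDKN1B (-0.25), CDKN1A (-0.50) and CEBPA (-0.11), where CDKN1B and CDKN1A encode inhibitors of cyclin-dependent kinases. CEBPA was at -0.093 and not called without sh-IRF1 replicate 1.

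Of 4 tested targets of MLXIP and MLX, 2 were called higher and 1 lower. TXNIP, an inhibitor of glucose uptake and the best-known MLXIP target, had 1955 and 1992 normalized counts in sh-NC and 2517 and 2258 in sh-IRF1, or 0.27 on the log2 scale (limma adjusted p = 2.33e-05). PFKFB3, a regulator of glycolysis, was higher at 0.34 (adjusted p = 0.000645), while ARRDC4, a relative of TXNIP, was lower at -0.35 (adjusted p = 0.0110). The call of ARRDC4 was lost without sh-NC replicate 2 (-0.31) and without sh-IRF1 replicate 1 (-0.25). KLF10 was at -0.091 (adjusted p = 0.386). PKLR, the fifth of the list, had 0 and 3 reads in sh-NC and 0 and 1 in sh-IRF1 and was not tested.

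**Figure D4:**
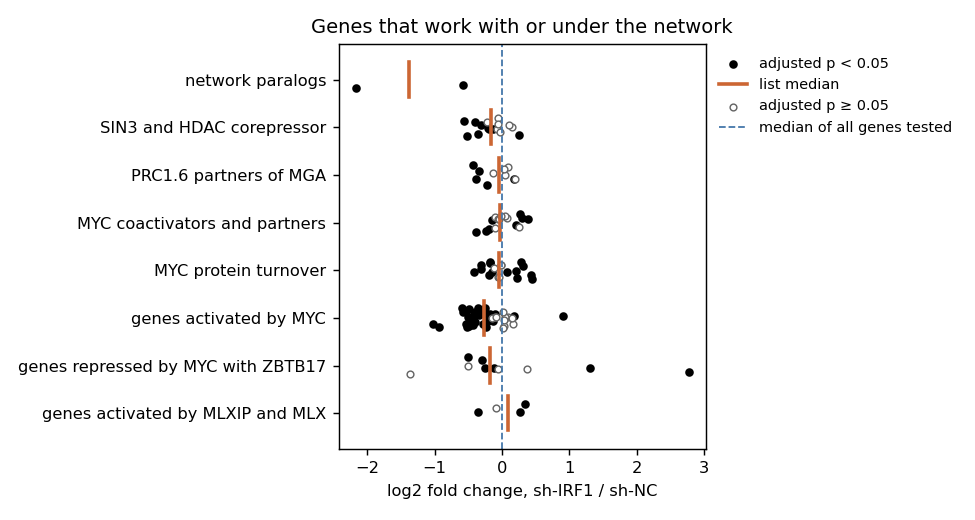
Log2 fold change of sh-IRF1 over sh-NC for each tested gene of 8 lists that work with or under the network, filled where the limma adjusted p was under 0.05, with the list median as a bar and the median of all genes (-0.0019) as a dashed line. The median is -0.26 for genes activated by MYC and -0.17 for the SIN3 and histone deacetylase genes, while the medians of coactivators and turnover genes are -0.030 and -0.044.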

How the data were processed

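RNA of 4 MV4-11 libraries (2 sh-NC, 2 sh-IRF1) was analysed from the deposited table of 23622 Ensembl genes. The authors deposited a normalized signal, gene reads divided by a size factor that each library has once. The submitters' processing notes name HISAT2 2.0.5 and hg38, and the study names DESeq2. The counting tool, its annotation and its use of strand were not given in the sources used here. Of the values in each library 100% were whole multiples of its smallest step within 0.001 of a read, which gave back the reads. For sh-IRF1 replicate 1 this step, 0.995, lies so close to 1 that it is hard to tell from plain counts.

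limma 3.58.1 (R 4.3.3, variance trend, robust, 43 prior degrees of freedom) was run on log2(value + 1) for genes that reached a value of 10 in 2 or more libraries. This scale understates the change of low genes. edgeR 4.0.16 and DESeq2 1.42.0 on the recovered reads served as alternatives only. On data simulated with the mean counts and depths of these libraries limma recovered 198 of 200 changed genes among 14153 and called 11 unchanged ones. The simulation set the variance by a formula and changed only well-read genes, far fewer than were called here. Its rates therefore need not hold for these data. Recovery of fold changes as small as those of MXI1, MAX, MXD1, MLX and MGA was not tested separately. Levels per length used size-factor-normalized counts in place of depth-scaled reads. Symbols matched 23456 identifiers, and positions and lengths came from GENCODE 44. The members and lists were chosen with earlier results of these data known. All members, IRF1, every tested gene of lists of 5 or fewer and the gene with the smallest p per direction of a list were named by rule. The marker genes, the genes overlapping members and the other list genes were named after their values were seen. WDR5 is in 2 lists, and CEBPA is also a myeloid marker. Other tables of the study were not used here.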

Additional observations from a re-analysis of the deposited data

How the results depend on the processing

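Over 15 alternatives (3 scalings, 2 filters, 2 pseudocounts, no robust shrinkage, edgeR, DESeq2, a replicate block and each library left out), 145 of 150 member fold changes kept their direction and side of the threshold. Leaving out each library in turn gave members called lower between 3 and 5, with MAX from -0.31 to -0.18, MXD1 from -0.26 to -0.19 and MLX from -0.29 to -0.20. MLXIP, from -0.0057 to 0.11, and MXD4, from -0.0045 to 0.076, each changed sign once and were called in no alternative. A group left with 1 library was taken to vary as the other. At a log2 fold change beyond 1 there were 389 genes higher and 318 lower. MYC over the summed repressors was 60.6% of the control without MGA. Of the other named genes' fold changes, 457 of 480 kept direction and call, and outside the left-out libraries calls were lost for ACTL6A (-0.10) and CEBPA (-0.069) with total counts, RYBP without a filter, and RYBP and ACTL6A with DESeq2. Of the counts in the lists, 219 of 240 stayed within 1.5 times. Scaling by total counts moved the median of all genes to 0.042 and the calls from 2861 higher and 3092 lower to 3428 and 2647. DESeq2 called 4917 genes in all against 5953, with no adjusted p for 9160. Replicate numbers did not pair the libraries (correlation of the replicate differences between the groups -0.015), and with the replicate block 2903 genes were called higher and 3147 lower, with 5 members lower and 1 higher as without it. Members called lower beyond 0.5 numbered 1 in place of 2 under total count scaling, upper-quartile scaling and edgeR, and between 1 and 2 with a library left out. MXD3 had the fewest reads and the widest interval of the members.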

Other observations

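The genes whose profile over the 4 libraries was closest to that of MYC, by Euclidean distance of log2(normalized count + 1) centred on each gene's mean, were PRKD3 (distance 0.0226), XBP1 (0.0381) and KCTD3 (0.0397). Their log2 fold changes were -0.96, -0.94 and -0.94, beside -0.97 for MYC. For MGA the closest were CNP (0.0145), ZNF524 (0.0202) and MAPKAPK2 (0.0204), with log2 fold changes of 0.24, 0.25 and 0.24. With 4 libraries in 2 groups such a distance mostly reflects an equal fold change.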
